A study of Mus musculus with 15 samples.

Results

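Enteroendocrine cells are the scattered hormone-secreting cells of the gut lining. The genes described here are 10 that mark them: the peptide hormone genes Gcg, Insl5, Pyy, Sst and Cck, the secretory granule proteins Chga and Chgb, the serotonin-making enzyme Tph1, and the transcription factors Neurod1 and Isl1. They were taken by the gene name printed beside each probe in the scanner files. That gave 15 probes of the 41174 on the array, with 2 probes each for Gcg, Pyy, Cck, Chgb and Tph1. Of the 15, 13 were well above background on each array of at least 1 group and were tested, among 30166 such probes in all. The rule finds probes by name only, but the 10 genes were chosen with earlier results of these data known. Shares of them that pass are therefore no independent evidence.

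The samples were colon areas of female Swiss Webster mice, cut from frozen sections by laser capture, with 2 mice in each of 4 groups. The groups were polypoid areas of mice given 5-ASA (mesalamine, or 5-aminosalicylic acid, a salicylate that dampens inflammation) at 75 mg/kg, polypoid areas of untreated mice, inflamed areas of 5-ASA mice, and inflamed areas of untreated mice. All 8 mice, the untreated ones included, had received the colon carcinogen azoxymethane (AOM, 7.4 mg/kg, intraperitoneal), and mice of 7 weeks entered the study. From 9 weeks of age all drank 4% dextran sulfate sodium (DSS), which injures the colon lining, for 3 cycles of 7 days, each followed by 21 days of water. They were killed at 18 weeks of age. The untreated mice are described as given vehicle in the design text and as given no treatment in the sample labels. No healthy colon was among the groups, so inflamed areas are the comparison for polypoid ones and not a normal tissue. Each mouse gave 1 area, and the labels do not say where along the colon it lay.

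Each RNA was amplified, labelled with 1 dye and hybridised in competition with an amplified universal mouse reference RNA carrying the second dye, on 15 two-colour arrays. A value here is log2 of sample over reference, combined to 1 value for each mouse. A value of 0 is the level in the reference, a difference of 1 is a doubling, and log2 values of different probes are not levels that can be ranked against each other. Median sample brightness was 147.9 to 255.3 scanner units an array, and 57.3% to 90.8% of spots stood well above background. The arrays were scanned in 4 sessions. Only the third held both tissues: untreated inflamed 2, 5-ASA polypoid 2 and untreated polypoid 2. Because the areas were mixtures of cells, fewer cells of a type and less RNA for each cell cannot be told apart.

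Different enteroendocrine cells carry different hormones. In the large bowel the L cell makes the proglucagon gene product from Gcg, which is cut to glucagon-like peptides, together with peptide YY and, in the distal colon, insulin-like peptide 5. The D cell makes somatostatin, and the enterochromaffin cell makes serotonin with the enzyme encoded by Tph1. Chromogranins fill the dense-core granules of most of these cells, and factors such as Neurod1 and Isl1 act while the cells form from crypt progenitors.

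The 250 bases before the RefSeq transcription start (GRCm38.p6) are shown for the 6 genes whose probes passed the test below, since 5 were lower in polypoid areas and 1 was higher. Capitals mark matches, on either strand, to the cyclic AMP response element TGACGTCA, to CAGATG (an E-box of the kind bound by NeuroD proteins) or to the TATA box string TATAAA. A core bound by homeodomain proteins, spelled TAATTA, was also searched and had no match in these 6. The Gcg window is chr2:62483654-62483903 (minus strand), that of Insl5 is chr4:103027272-103027521 (minus strand, the first of 2 starts in the table), and that of Pyy is chr11:102107833-102108082 (minus strand, the first of 2 starts). The Chga window is chr12:102554691-102554940 (plus strand), the Chgb window is chr2:132781392-132781641 (plus strand), and the Isl1 window is chr13:116309689-116309938 (minus strand).
Gcg: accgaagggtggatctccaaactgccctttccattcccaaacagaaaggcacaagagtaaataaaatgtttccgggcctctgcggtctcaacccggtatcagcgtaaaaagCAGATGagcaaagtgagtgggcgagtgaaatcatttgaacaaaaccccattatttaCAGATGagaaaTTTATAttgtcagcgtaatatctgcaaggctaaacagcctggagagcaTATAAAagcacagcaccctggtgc
Insl5: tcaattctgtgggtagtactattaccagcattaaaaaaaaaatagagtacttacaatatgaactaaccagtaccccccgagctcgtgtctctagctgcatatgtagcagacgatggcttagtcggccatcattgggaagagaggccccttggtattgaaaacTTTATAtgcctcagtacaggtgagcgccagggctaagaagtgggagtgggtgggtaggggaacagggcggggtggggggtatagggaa
Pyy: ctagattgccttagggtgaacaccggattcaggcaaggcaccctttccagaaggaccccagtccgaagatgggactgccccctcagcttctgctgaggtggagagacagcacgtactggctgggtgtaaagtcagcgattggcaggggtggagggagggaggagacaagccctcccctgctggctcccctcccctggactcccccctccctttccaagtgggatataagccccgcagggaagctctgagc
Chga: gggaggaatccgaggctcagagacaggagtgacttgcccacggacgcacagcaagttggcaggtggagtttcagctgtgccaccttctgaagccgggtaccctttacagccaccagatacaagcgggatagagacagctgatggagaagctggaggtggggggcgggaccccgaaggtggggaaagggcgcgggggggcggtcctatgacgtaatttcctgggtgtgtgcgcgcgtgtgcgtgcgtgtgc
Chgb: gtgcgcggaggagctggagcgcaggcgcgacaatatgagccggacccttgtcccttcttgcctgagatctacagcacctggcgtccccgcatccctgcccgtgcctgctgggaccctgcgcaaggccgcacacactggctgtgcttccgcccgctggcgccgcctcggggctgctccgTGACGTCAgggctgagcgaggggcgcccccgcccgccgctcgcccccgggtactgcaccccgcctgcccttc
Isl1: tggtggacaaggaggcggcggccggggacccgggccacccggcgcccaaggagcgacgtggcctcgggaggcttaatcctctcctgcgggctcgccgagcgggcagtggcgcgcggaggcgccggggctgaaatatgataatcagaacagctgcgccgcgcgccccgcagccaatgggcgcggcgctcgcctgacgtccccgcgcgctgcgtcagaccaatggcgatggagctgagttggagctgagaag

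Gcg held 2 matches to the E-box, 139 and 83 bases before the start, and 2 to the TATA box string, 72 and 24 bases before it. Insl5 held 1 match to the TATA box string, 88 bases before its first start, and its second start, not printed, had 1 match to the TATA box string at 49 bases and 1 to the E-box at 178 bases. Cck also held an E-box, 30 bases before the start. The cyclic AMP response element appeared in Chgb, 72 bases before the start, and also in the window of Sst, 48 bases before its start. No match to these 4 letter strings was found in the Pyy, Chga or Isl1 windows. Among all 32851 windows of this length in the table, the cyclic AMP response element was present in 1.55%, the E-box in 14.4%, the TATA box string in 12.4% and the homeodomain core in 4.84%. The windows also differed in base composition, with 44.8% G and C in Gcg and 48.8% in Insl5, against 61.2% in Pyy, 62.4% in Chga, 71.2% in Isl1 and 72.8% in Chgb.

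The first question was how polypoid areas differ from inflamed ones in these genes. In polypoid areas, the hormone genes Gcg and Insl5, both granule protein genes and 1 of the 2 Pyy probes were lower than in inflamed areas, by 3.71-fold to 29.1-fold. Isl1 was higher, by 1.6-fold. In limma's moderated test over both arms, 4 mice against 4, 5 of the 13 member probes passed as lower, where 1.5% of all probes did, and 1 of 13 passed as higher, where 3.33% did. Without regard to the test, 6 member probes (Gcg A_51_P406253, Insl5, both Pyy probes, Chga and Tph1) lay below all inflamed samples in all polypoid samples, against 6.91% of all probes. For Isl1 all polypoid samples lay above all inflamed ones, against 8.2% of all probes. The median difference was -1.16 over the 13 member probes and 0 over all probes tested.

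**Figure D1:**
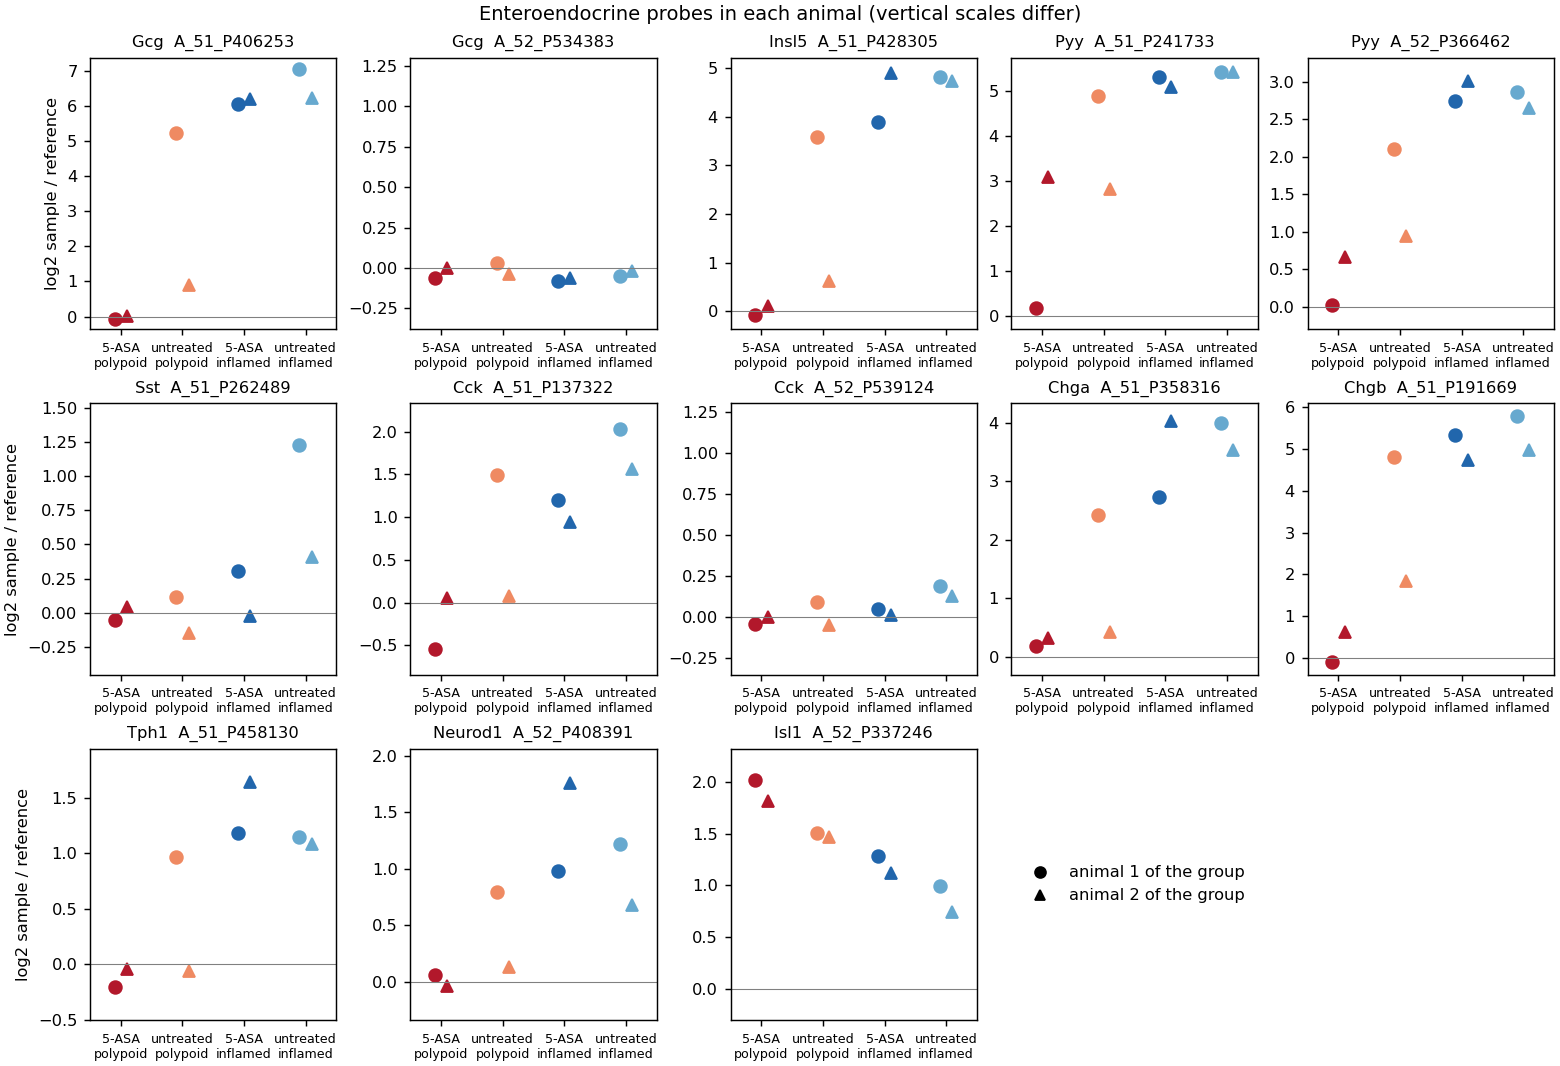
Log2 of sample over reference for the 13 tested probes, 1 panel a probe, with 1 point for each of the 8 mice; the circle is mouse 1 and the triangle mouse 2 of a group, and vertical scales differ between panels. Untreated polypoid 1 (orange circle) lies near the inflamed samples for most hormone and granule genes, while both 5-ASA polypoid samples lie near 0 for Gcg and Insl5; Isl1 runs the other way, between 0.74 and 2.02.

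Gcg encodes proglucagon. Its probe A_51_P406253 read -0.06 and 0.01 in the 5-ASA polypoid samples and 5.24 and 0.89 in the untreated polypoid samples, against 6.05 and 6.19 in the 5-ASA inflamed and 7.07 and 6.22 in the untreated inflamed samples. Both 5-ASA polypoid samples read near 0, untreated polypoid 1 stood near the inflamed samples, and the 2 tissues did not overlap. The probe was dim in the 5-ASA polypoid samples, at 139.4 and 133.9 scanner units. Their values near 0 are therefore no close measure of the level in the reference, and the fold below is less certain. Polypoid samples averaged 1.52 ± 2.52 and inflamed samples 6.38 ± 0.47 (SD, n = 4 each). The difference was -4.86 ± 0.90 (SE), or 29.1-fold lower (95% interval of the log2 difference -7.04 to -2.69, limma adjusted p = 0.039).

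The second Gcg probe, A_52_P534383, did not follow the first. Its values ran between -0.08 and 0.03 over all 8 mice, and the polypoid minus inflamed difference was 0.04 (interval -0.16 to 0.23, limma adjusted p = 0.84). It was well above background on all 15 arrays, yet its sample-channel brightness stayed between 111.0 and 181.3 scanner units, while that of the first probe ran between 124.9 and 20389.3. The first probe is tied on the array to the RefSeq messenger RNA and the second to a separate cDNA record. The statements on Gcg therefore rest on 1 probe, and which part of the transcript either probe covers was not examined here.

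Insl5, a relaxin-family peptide of colonic L cells, had 1 probe. It read -0.07 and 0.10 in the 5-ASA polypoid and 3.59 and 0.63 in the untreated polypoid samples, against 3.90 and 4.91 in the 5-ASA inflamed and 4.83 and 4.74 in the untreated inflamed samples. The tissues did not overlap, and untreated polypoid 1 was again the highest polypoid sample, just below the lowest inflamed one. Polypoid samples averaged 1.07 ± 1.71 and inflamed samples 4.59 ± 0.47 (SD, n = 4 each), a difference of -3.53 ± 0.64 (SE), or 11.5-fold lower (limma adjusted p = 0.037).

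Pyy encodes peptide YY, a hormone that slows gut transit and feeding. Probe A_52_P366462 read 0.02 and 0.66 in the 5-ASA polypoid and 2.10 and 0.95 in the untreated polypoid samples, against 2.75 and 3.02 in the 5-ASA inflamed and 2.87 and 2.66 in the untreated inflamed samples. The tissues were apart, and the difference was -1.89 ± 0.28 (SE), or 3.71-fold lower (limma adjusted p = 0.023). Probe A_51_P241733 read 0.18 and 3.08 in the 5-ASA polypoid and 4.88 and 2.82 in the untreated polypoid samples, against 5.31 and 5.08 in the 5-ASA inflamed and 5.42 and 5.42 in the untreated inflamed samples. Here too the tissues did not overlap, but the spread among polypoid samples was wide. The difference of -2.57 ± 0.72 (SE) did not pass (limma adjusted p = 0.10). A_51_P241733 was saturated on 4 of the 7 inflamed arrays and on no polypoid array, so its inflamed values are capped by the scanner.

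Sst, the somatostatin gene, showed small values throughout. It read -0.05 and 0.04 in the 5-ASA polypoid and 0.12 and -0.15 in the untreated polypoid samples, against 0.31 and -0.02 in the 5-ASA inflamed and 1.23 and 0.41 in the untreated inflamed samples. The groups overlapped, with untreated inflamed 1 the one sample well above the rest. The difference of -0.49 (interval -0.99 to 0.00, limma adjusted p = 0.23) did not pass.

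Cck encodes cholecystokinin, made mainly by endocrine cells of the upper small intestine. Probe A_51_P137322 read -0.54 and 0.06 in the 5-ASA polypoid and 1.49 and 0.08 in the untreated polypoid samples, against 1.20 and 0.94 in the 5-ASA inflamed and 2.03 and 1.56 in the untreated inflamed samples. Untreated polypoid 1 lay among the inflamed samples, and the difference of -1.16 (interval -1.98 to -0.34, limma adjusted p = 0.11) did not pass. It was well above background on 6 of 8 polypoid and all 7 inflamed arrays. The second probe, A_52_P539124, ran between -0.05 and 0.19 over the 8 mice, with a difference of -0.09 (interval -0.30 to 0.11, limma adjusted p = 0.58).

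**Figure D2:**
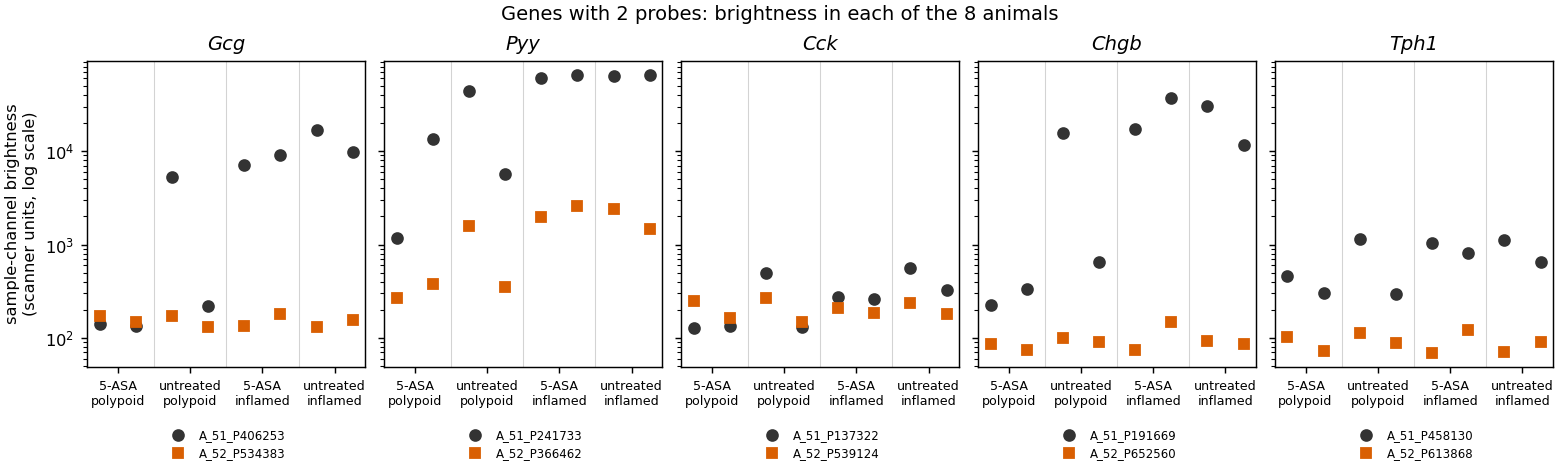
Sample-channel brightness in scanner units (log scale) for the 5 genes with 2 probes, 1 point for each probe and mouse, in the order of the groups along the horizontal axis. The first Gcg probe spans the range between 133.9 and 16950.4 while the second does not pass 180.4. The Pyy probes rank the polypoid samples in the same order but move by unlike amounts. In 5-ASA polypoid 1 and 2 they read 1179.3 and 13434.8 (A_51_P241733) against 270.2 and 377.1 (A_52_P366462). The second probes of Chgb and Tph1 stay between 68.3 and 148.1.

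Chga and Chgb encode chromogranins A and B, acidic proteins that pack hormones in dense-core granules. Chga read 0.18 and 0.32 in the 5-ASA polypoid and 2.43 and 0.43 in the untreated polypoid samples, against 2.73 and 4.03 in the 5-ASA inflamed and 3.99 and 3.53 in the untreated inflamed samples. All polypoid samples lay below all inflamed ones, and untreated polypoid 1 was 2.12 above the mean of the other polypoid samples. The difference was -2.73 ± 0.50 (SE), or 6.63-fold lower in polypoid samples (limma adjusted p = 0.038).

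Chgb was measured by A_51_P191669, which is printed in 10 spots an array. It read -0.10 and 0.61 in the 5-ASA polypoid and 4.81 and 1.84 in the untreated polypoid samples, against 5.33 and 4.73 in the 5-ASA inflamed and 5.79 and 4.97 in the untreated inflamed samples. Untreated polypoid 1 lay just above the lowest inflamed sample, so the tissues overlapped by that mouse. The difference was -3.42 ± 0.65 (SE), or 10.7-fold lower (limma adjusted p = 0.043). The other Chgb probe, A_52_P652560, was well above background on none of the polypoid and 2 of the 7 inflamed arrays and was not tested. Its values ran between -0.10 and 0.51.

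Tph1 encodes the rate-limiting enzyme of serotonin synthesis outside the nervous system. Probe A_51_P458130 read -0.20 and -0.04 in the 5-ASA polypoid and 0.97 and -0.06 in the untreated polypoid samples, against 1.18 and 1.64 in the 5-ASA inflamed and 1.15 and 1.08 in the untreated inflamed samples. The tissues did not overlap, but the difference of -1.09 (interval -1.68 to -0.51, limma adjusted p = 0.061) missed the threshold of 0.05. The other probe, A_52_P613868, was above background on 0 of 15 arrays and gives no information on the gene.

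Neurod1, a basic helix-loop-helix factor of endocrine precursors, was dim. It read 0.06 and -0.04 in the 5-ASA polypoid and 0.79 and 0.13 in the untreated polypoid samples, against 0.98 and 1.76 in the 5-ASA inflamed and 1.22 and 0.68 in the untreated inflamed samples. Untreated polypoid 1 overlapped the inflamed samples, and the probe was well above background on 5 of 8 polypoid and 7 of 7 inflamed arrays. The difference was -0.93 (interval -1.53 to -0.33, limma adjusted p = 0.093) and did not pass.

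Isl1, a LIM-homeodomain factor of endocrine cells and of neurons, was the one member with the opposite sign and a call. It read 2.02 and 1.82 in the 5-ASA polypoid and 1.51 and 1.47 in the untreated polypoid samples, against 1.28 and 1.12 in the 5-ASA inflamed and 0.99 and 0.74 in the untreated inflamed samples. All polypoid samples were above all inflamed ones, and here the untreated polypoid samples were close together. Polypoid samples averaged 1.71 ± 0.26 and inflamed samples 1.03 ± 0.23 (SD, n = 4 each), a difference of 0.67 ± 0.11 (SE), or 1.6-fold higher (limma adjusted p = 0.027).

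The calls of this comparison rest on few mice. When 1 mouse was left out, each of the 6 called probes lost its call in most of the fits. Fewer of all probes passed in each of these fits too, and 1 group then held 1 mouse. The lost calls are therefore not a result about the members alone. Which probes passed also changed between the fits. The 6 called differences kept their direction in each of them. Without untreated polypoid 1 they were -5.95 for Gcg, -4.27 for Insl5 and -4.16 for Chgb, and without untreated polypoid 2 they were -3.78, -2.79 and -2.68 for those genes. No other mouse left out moved a called fold by over 1.5 times; Chga ran between -3.23 and -2.23, Pyy A_52_P366462 between -2.18 and -1.61 and Isl1 between 0.61 and 0.74. With scan session as a block, which leaves 1 residual degree of freedom, limma called 0 of all probes (4169 had an unadjusted p under 0.05), and the 6 member differences were -5.25 for Gcg, -3.91 for Insl5, -1.79 for Pyy A_52_P366462, -2.53 for Chga, -3.52 for Chgb and 0.76 for Isl1, with adjusted p of 0.35 to 0.42. Within the third scan session, polypoid minus inflamed was -5.77 for Gcg, -4.37 for Insl5, -1.85 for Pyy A_52_P366462, -3.16 for Chga, -3.75 for Chgb and 0.91 for Isl1, from 2 polypoid samples and 1 inflamed sample and so with no test.

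**Figure D3:**
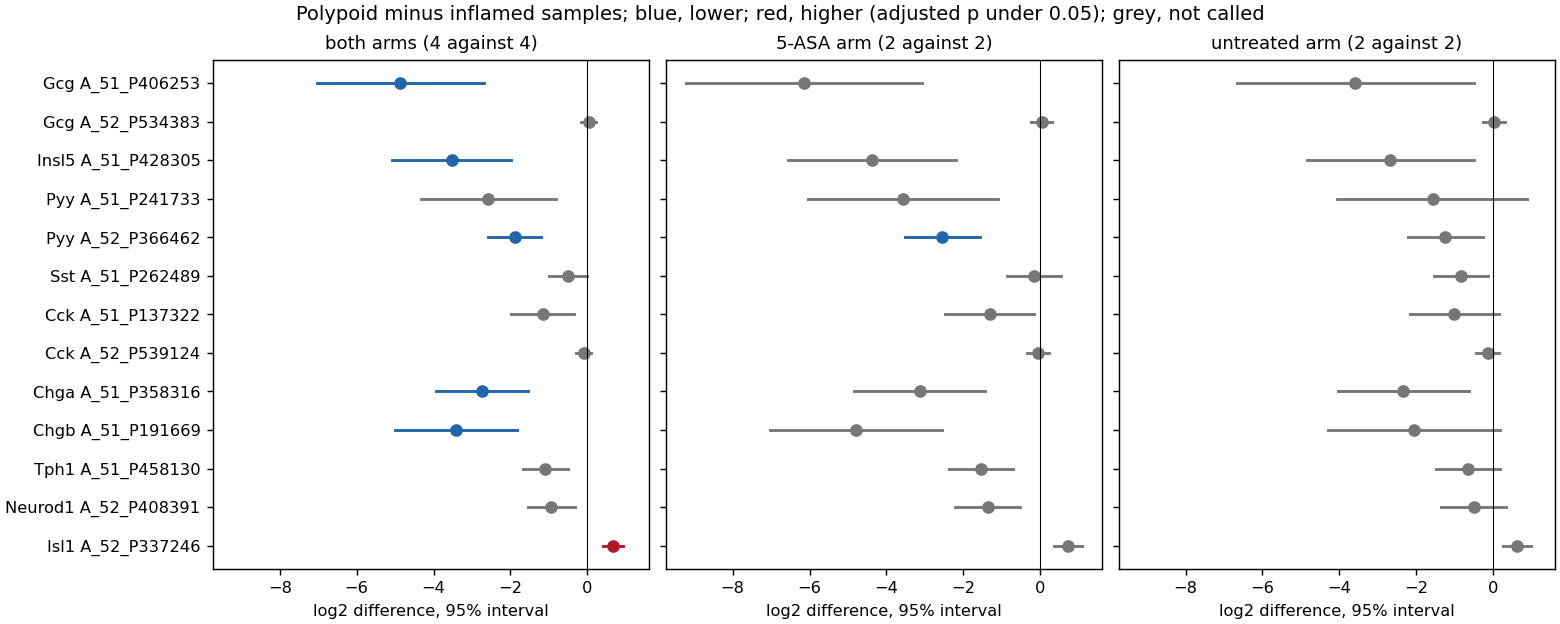
Log2 difference of polypoid minus inflamed samples for each of the 13 tested probes, with 95% intervals. The left panel pools the arms and the others show 1 arm each. Over both arms 5 probes passed as lower (blue) and 1 as higher (red); in the 5-ASA arm 1 passed, in the untreated arm none did, and the second probes of Gcg and Cck stay close to 0 in all 3 panels.

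The arms were also compared one at a time, and the direction of the members was the same in both. In the 5-ASA arm, 2 mice against 2, Pyy A_52_P366462 was lower by 5.84-fold (log2 difference -2.55 ± 0.40 SE, limma adjusted p = 0.040), 1 of 13 member probes where 0.709% of all probes passed as lower. No member passed as higher there, and 1.56% of all probes did. The differences that did not pass included -6.15 for Gcg, -4.38 for Insl5, -3.13 for Chga and -4.78 for Chgb, with limma adjusted p of 0.070, 0.070, 0.083 and 0.061. The number passing, of members and of all probes, changed when 1 mouse was left out, which leaves 1 mouse in its group. The Pyy call was lost in most of those fits. In the untreated arm no member passed in either direction, where limma called 0.00331% of all probes as lower and 0.116% as higher. In this arm 6 of the 13 members had an unadjusted p under 0.05 in limma, as did 3682 of all 30166 probes. There the differences were -3.58 for Gcg, -2.67 for Insl5, -2.33 for Chga, -2.06 for Chgb and 0.63 for Isl1, with adjusted p between 0.22 and 0.44. Most members thus had a wider difference in the 5-ASA arm, whereas Sst (-0.15 in the 5-ASA arm and -0.83 in the untreated arm) and Cck A_52_P539124 (-0.05 and -0.14) had a narrower one. No such difference between the arms passed in the treatment-by-tissue comparison below.

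By group mean, Gcg, Insl5, Cck A_51_P137322, Chga and Chgb ran in 1 order, highest in untreated inflamed samples, then 5-ASA inflamed, untreated polypoid and 5-ASA polypoid. Isl1 ran in the exact reverse of it. For Pyy A_52_P366462, Tph1 and Neurod1 the 5-ASA inflamed mean was the highest, and the inflamed order of Pyy A_51_P241733 cannot be read because of its saturated spots. Neighbours in this order within a tissue did not pass the test of treatments below, and 5-ASA inflamed was not tested against untreated polypoid.

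The next question was whether 5-ASA went with a change in these genes. In polypoid areas of 5-ASA mice, 7 of the 13 member probes lay below both untreated polypoid samples, where 19.2% of all probes did: Gcg A_51_P406253, Insl5, Pyy A_52_P366462, Cck A_51_P137322, Chga, Chgb and Neurod1. None of the differences passed. In polypoid areas limma called 0% of all probes (0 of 30166), and 7.64% had an unadjusted p under 0.05, 4 of the 13 members among them. The log2 difference, 5-ASA minus untreated, was -3.09 for Gcg (interval -6.17 to -0.01, adjusted p = 0.65), -3.07 for Chgb (interval -5.31 to -0.83, adjusted p = 0.60), -1.18 for Pyy A_52_P366462 (interval -2.16 to -0.21, adjusted p = 0.62) and 0.43 for Isl1 (interval 0.07 to 0.80, adjusted p = 0.62).

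The differences were uneven between the scan sessions. Within the second scan session, which held 5-ASA polypoid 1 and untreated polypoid 1, 5-ASA minus untreated was -5.30 for Gcg, -3.66 for Insl5, -4.91 for Chgb, -2.25 for Chga and -4.70 for Pyy A_51_P241733. Within the third, which held both second mice, it was -0.88 for Gcg, -0.53 for Insl5, -1.23 for Chgb, -0.11 for Chga and 0.26 for Pyy A_51_P241733. Isl1 differed by 0.52 and 0.35 in those sessions. The called Pyy probe, A_52_P366462, differed by -2.07 in the second session and -0.30 in the third. For it and for Gcg, Insl5, Chga and Chgb the untreated polypoid samples lay further apart than the 5-ASA ones, with untreated polypoid 1 the higher. For Pyy A_51_P241733, by contrast, the 5-ASA samples (0.18 and 3.08) lay further apart than the untreated ones (4.88 and 2.82). The list of mature colonocyte genes, 12 genes such as Slc26a3 and Aqp8, had its highest polypoid median in untreated polypoid 1, 2.89, against 1.82 in untreated polypoid 2 and 0.72 and 0.50 in the 5-ASA polypoid samples. How much adjoining mucosa each captured area held was not tested.

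**Figure D4:**
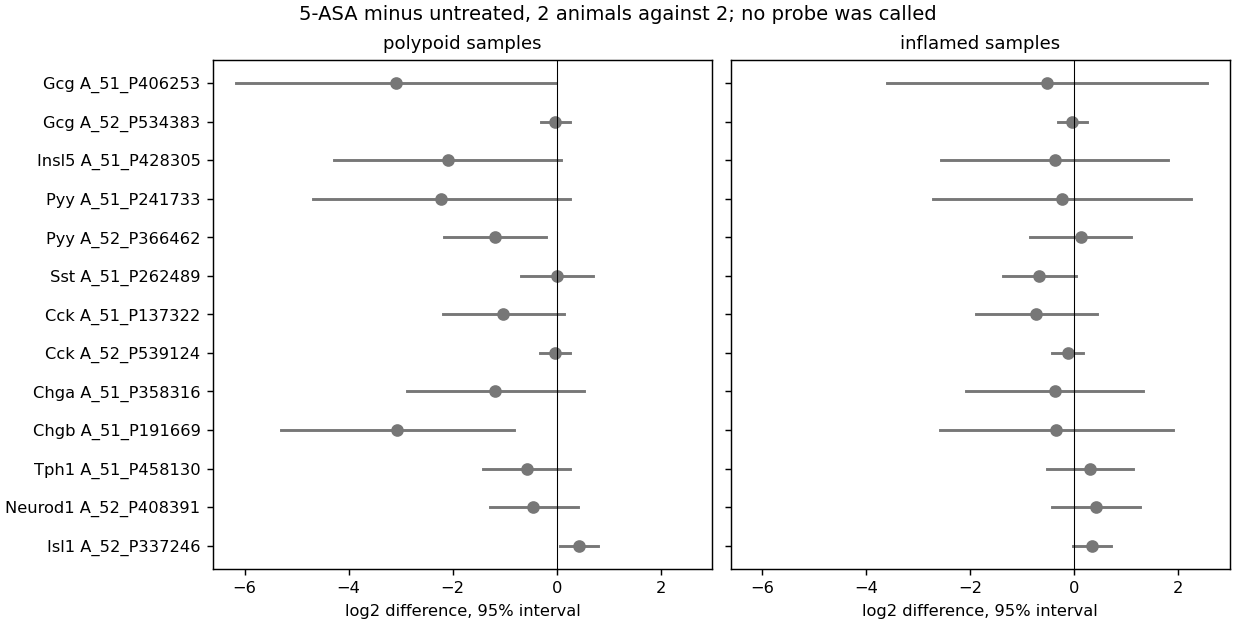
Log2 difference of 5-ASA minus untreated samples for the 13 tested probes with 95% intervals, in polypoid areas (left) and inflamed areas (right), 2 mice against 2 in each. Intervals are wide, no probe was called, and the largest differences, -3.09 for Gcg and -3.07 for Chgb, are in polypoid areas.

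In inflamed areas limma adjusted p was 0.98 to 0.99 for all 13 member probes. The differences, 5-ASA minus untreated, were -0.52 for Gcg (interval -3.60 to 2.55), -0.38 for Insl5 (-2.56 to 1.80), -0.38 for Chga (-2.09 to 1.32), -0.35 for Chgb (-2.59 to 1.89) and 0.34 for Isl1 (-0.03 to 0.70). These intervals include 2-fold changes in either direction for Gcg, Insl5, Chga and Chgb, so the data set no close bound. Sst differed by -0.67 (-1.37 to 0.03) in inflamed areas and by 0.01 (-0.69 to 0.70) in polypoid areas, Cck A_52_P539124 by -0.12 and -0.04, and Neurod1 by 0.42 and -0.45. Again 0% of all probes were called in inflamed areas, and 4.25% had an unadjusted p under 0.05, 0 members among them. Over both tissues together 0% were called and 6.2% had an unadjusted p under 0.05, of the members Chgb (-1.71, interval -3.29 to -0.13), Cck A_51_P137322 (-0.88, interval -1.70 to -0.06) and Isl1 (0.39, interval 0.13 to 0.64), all with an adjusted p of 0.78 or 0.80. The test of the 5-ASA effect in polypoid minus that in inflamed areas called 0% of all probes, and 5.81% had an unadjusted p under 0.05, with 0 members. Its values included -2.56 for Gcg (interval -6.92 to 1.79, adjusted p = 0.93) and -2.72 for Chgb (interval -5.89 to 0.45, adjusted p = 0.88).

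In the wider endocrine lists, few genes passed over both arms, and their values went both ways. Of 18 other hormone and amine genes tested, 1 passed as higher and 1 as lower in polypoid areas, with a median difference of -0.09, where that of all probes was 0. Of 10 other genes of granules and prohormone processing none passed (median -0.33), nor did any of 18 other endocrine transcription factors (median -0.15) or of 13 nutrient and bile acid sensors (median -0.11). Of 17 hormone receptors and hormone-degrading enzymes, 1 passed as higher and 1 as lower (median -0.10). In the same fit, limma at the adjusted threshold, 1458 of the 30166 probes passed. The precursor factor Neurog3, which starts the endocrine programme, read a difference of -0.08 ± 0.12 (SE), and the granule gene Scg5 -1.92 ± 0.55 (SE, limma adjusted p = 0.11). The guanylin gene Guca2a, which is also in the mature colonocyte list, read -1.28. The short-chain fatty acid receptor gene Ffar2 read -1.21 and the secretin gene Sct -1.12. None of these passed, and the median size over all probes was 0.18. They do not stand for their lists. Of the 18 other hormone and amine genes 10 had a negative difference, and of the 13 sensors 10 did.

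Ppy, which encodes pancreatic polypeptide and is a relative of Pyy, was lower. It read 0.22 and 0.15 in the 5-ASA polypoid and 1.33 and 0.94 in the untreated polypoid samples, against 2.12 and 3.31 in the 5-ASA inflamed and 2.21 and 2.60 in the untreated inflamed samples (difference -1.90 ± 0.28 SE, 3.72-fold, limma adjusted p = 0.022). Whether its probe also binds Pyy RNA was not tested. Slc18a1, the vesicular monoamine transporter that loads serotonin into enterochromaffin granules, was higher while Tph1 was not. It read 2.42 and 3.51 in the 5-ASA polypoid and 2.24 and 2.32 in the untreated polypoid samples, against 0.45 and 0.90 in the 5-ASA inflamed and 0.79 and 0.94 in the untreated inflamed samples (difference 1.85 ± 0.25 SE, 3.6-fold, limma adjusted p = 0.020). Polypoid samples lay above all inflamed ones, untreated polypoid 1 included.

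Npy2r, a receptor for peptide YY, was higher in polypoid areas by 2.84-fold (SE 0.24 on the log2 scale, limma adjusted p = 0.026). It read 3.04 and 2.25 in the 5-ASA polypoid and 1.17 and 0.51 in the untreated polypoid samples, against 0.28 and 0.09 in the 5-ASA inflamed and 0.47 and 0.12 in the untreated inflamed samples. Its probe was well above background on all 8 polypoid and 5 of the 7 inflamed arrays, so the inflamed level and the fold are less certain. Dpp4, the enzyme that cleaves glucagon-like peptides and peptide YY, was lower by 3.07-fold (-1.62 ± 0.25 SE, limma adjusted p = 0.026), and all its polypoid samples lay below the inflamed ones. Slc6a4, the serotonin reuptake transporter, differed by -2.34 ± 0.49 (SE, limma adjusted p = 0.054) and did not pass. Nor did Sox4 (0.39), the glucose-responsive factor Mlxipl (1.35) or the ETS factor Etv1 (-0.59), with limma adjusted p of 0.075, 0.086 and 0.098.

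**Figure D5:**
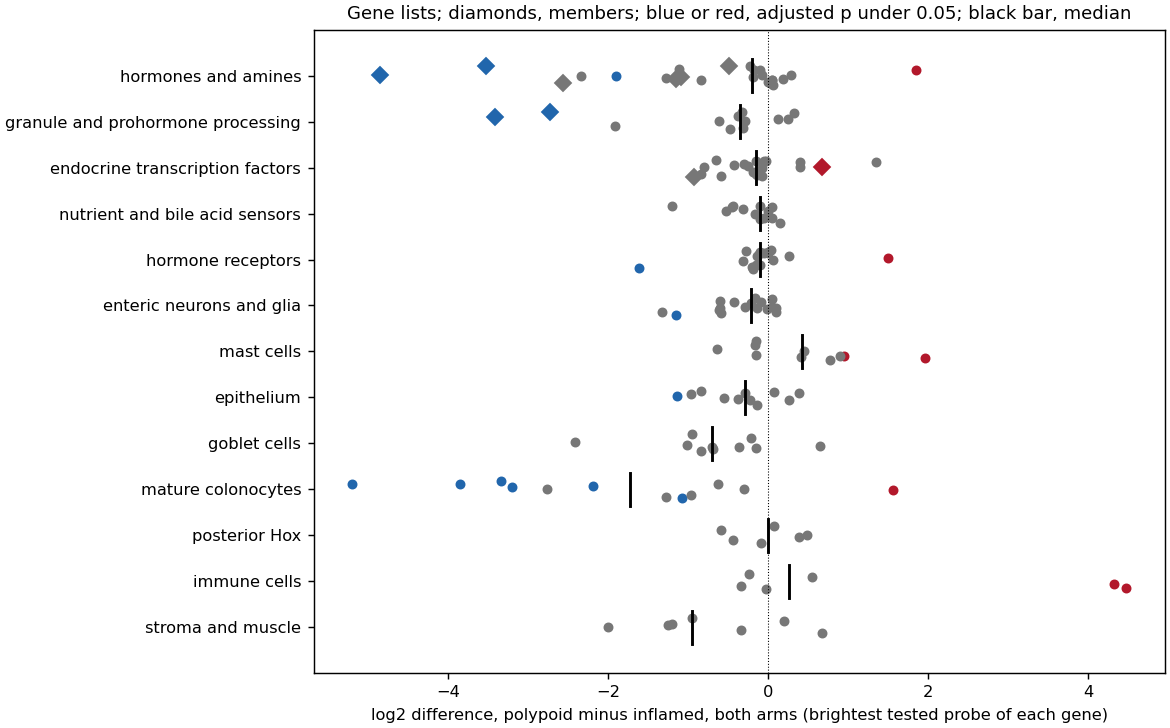
Log2 difference of polypoid minus inflamed samples over both arms for the brightest tested probe of each gene, 1 row for each of the 13 lists; diamonds are members, blue or red points passed, and the black bar is the list's median. The members Gcg, Insl5, Chgb and Chga lie to the left of all other endocrine genes, and the mature colonocyte list has a median of -1.74.

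Lists of other cells in the same areas gave these values over both arms. Of 12 mature colonocyte genes 6 passed as lower and 1, Slc9a3, as higher (median -1.74), and their summed sample-channel level was 39732 to 114261 scanner units in polypoid and 188269 to 276954 in inflamed samples. Krt20 was saturated on 6 inflamed and 2 polypoid arrays, and Aqp8 and Guca2a on 1 inflamed array each, which caps these sums. Of 10 goblet cell genes none passed (median -0.70), with sums of 33817 to 288793 in polypoid and 378809 to 551610 in inflamed samples. Tff3, Clca1 and Zg16 were saturated on all 7 inflamed and 2 polypoid arrays, and Retnlb, Fcgbp and Agr2 on 5, 4 and 2 inflamed arrays, which caps the inflamed sums and the differences of these genes. Of 11 general epithelial genes 1 passed, Cdx1, as lower (median -0.29), with sums of 275594 to 448562 in polypoid and 325635 to 510309 in inflamed samples. Krt8 and Lgals4 were saturated on all 15 arrays and Krt18 on all 8 polypoid and 2 inflamed arrays, so these sums are capped by the scanner and their overlap says little. All 8 mice had epithelial medians of 2.63 to 3.62, so the samples carried epithelial RNA at well above the level in the reference. The part of these shifts in the members' differences was not tested.

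Isl1, Chga and Chgb are also made by neurons, and histamine and serotonin enzymes by mast cells. Of 17 enteric neuron and glia genes none passed as higher and 1, Stmn2, as lower (median -0.22), with sums of 4094 to 5044 in polypoid and 4299 to 6905 in inflamed samples. The neuronal genes Prph, Gap43 and Vip were not kept because they were not above background on all arrays of any group. Of 10 mast cell genes 2, Hdc and Mcpt1, passed as higher (median 0.42), with sums of 3549 to 5887 in polypoid and 2602 to 4047 in inflamed samples; Tpsab1 and Mcpt2 were not kept. Of 6 immune genes 2, S100a8 and S100a9, passed as higher. Of 6 posterior Hox genes, which mark position along the colon, none passed (median -0.01), and of 7 stromal and muscle genes none passed (median -0.96).

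Among 21298 other genes with 1 probe each, those most like Insl5 over the 8 mice were Gcg (Pearson r = 0.992), a probe with no gene name (A_52_P988817, r = 0.990), Chga (r = 0.989), Lrig3 (r = 0.984) and Oxld1 (r = 0.981). Those most like Chga were Hsf5 (r = 0.991), Insl5 (r = 0.989), Oxld1 (r = 0.985), Dll4 (r = 0.977) and Lrig3 (r = 0.976). The size of the change differed among them. Over both arms Lrig3 differed by -2.03 ± 0.32 and Oxld1 by -0.65 ± 0.11 (SE, limma adjusted p of 0.026 and 0.034), whereas Hsf5 differed by -0.50 and Dll4 by -0.26 and did not pass. With Insl5, Tph1 correlated at r = 0.971, Chgb at 0.964, Cck at 0.912, Pyy at 0.897, Neurod1 at 0.893, Sst at 0.581 and Isl1 at -0.881. These values describe 8 samples that share 2 tissues and untreated polypoid 1, so they mostly restate the tissue difference, and no test goes with them.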

How the data were processed

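RNA from 8 laser-captured colon samples was measured on 15 two-colour arrays, with dyes swapped for 7 mice and 1 array for 5-ASA inflamed 2. Per the file headers, each deposited scanner file gives an intensity for both channels of a spot, read with Agilent Feature Extraction 9.1.1.1, and a log10 ratio of red over green computed by that software. The value table deposited by the authors is in log2 units, sample over reference, and its swapped arrays had been turned, as its slopes against the log10 ratio show (3.02 to 3.16 in size, negative with the sample in Cy3). Its column medians were -0.012 to 0.031, and its normalization is not given in the sources used here. Probes were named from the scanner files, with symbols updated through RefSeq (GRCm38.p6) for 22864 probes by accession and 10230 by name.

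In R 4.3.3 with limma 3.58.1, background was corrected by normexp (offset 50), dyes were balanced by loess, and each array was turned to log2 of sample over reference. The offset pulls ratios of dim probes towards 0. Animal plus dye was fitted to give 1 value for each probe and mouse. Probes well above background in the sample channel on all arrays of at least 1 group were kept. Group means were compared in limma (4 residual and 2.18 prior degrees of freedom), with Benjamini-Hochberg adjustment over all kept probes and a threshold of 0.05. With 2 mice a group the number of mice limits the precision. Each p-value sets a difference against limma's moderated spread between mice of a group. That spread also holds part of any shift between scan sessions, since the mice of a group were scanned in different sessions. Sessions 1 and 4 held only inflamed samples and session 2 only polypoid ones. A session shift can therefore also enter the polypoid minus inflamed difference itself, which the p-value does not cover.

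All member probes are named. Of the first 5 lists, other genes were named where they passed over both arms, filled to 8 by unadjusted p. The 5 genes most correlated with Insl5 and with Chga were named too. Neurog3, Scg5, Guca2a, Ffar2 and Sct were named outside this rule, by choice. The lists use the brightest kept probe of a gene. The members and lists were chosen with earlier results of these data known. No probe sequences were used here. The same replicate number in different groups marks no shared animal, and the deviations of same-numbered samples correlated at 0.04 to 0.37 over the 6 pairs of groups.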

Additional observations from a re-analysis of the deposited data

How the results depend on the processing

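Over both arms, 6 of 13 member probes passed; the count was 9 with the scanner's processed signals (2180 of all probes), 9 with animal as a random block, 3 with the deposited value table, 3 without background subtraction, 2 without a filter on dim probes, 0 with only Cy5-sample arrays, 0 with scan session as a block (limma then called 0 of all probes, 4169 at an unadjusted p under 0.05), and 0 to 7 when 1 mouse was left out. All probes passing numbered 1458, against 4448 with arrays fitted together and animal as a random block (within-animal correlation 0.87), 399 with only Cy5-sample arrays and 125 to 1444 with 1 mouse left out. In the 5-ASA arm, 1 member passed; it was 6 with the scanner's processed signals, 9 with animal as a random block, 2 with only Cy3-sample arrays, 0 with only Cy5-sample arrays, no dim filter, 1 probe for each gene or the session block, and 0 to 6 with 1 mouse left out. All probes passing there numbered 685, against 1124, 3362, 805, 16, 573, 653 and 0 in the same order of settings, 407 with the deposited value table and 0 to 919 with 1 mouse left out. In the untreated arm 0 members passed, and 4 did with animal as a random block, when 1346 probes passed in place of 36; under the other alternatives 0 to 125 probes did. No member passed in the 5-ASA comparisons under any alternative, and the random block called 5 to 108 of all probes there. With the replicate block, 3 members passed in the 5-ASA arm (1198 probes in all) and 6 over both arms, where Insl5 had a limma adjusted p of 0.040. The replicate numbers mark no shared animal, but they partly follow scan session. First mice were scanned in sessions 1 and 2 and second mice in sessions 3 and 4, so the correlations of 0.04 to 0.37 do not exclude shared shifts. Over both arms, the 13 probes' differences kept their sign in all 255 alternative fits, of which 60 lost a call and 9 gained one. With the random block, the deposited value table or no background subtraction, all member calls over both arms were lower, so Isl1 was not called. Isl1 also lost its call in other settings, among them most fits with 1 mouse left out. The Neurod1 difference was -2.55 with the scanner's processed signals, against -0.93, and the cause was not tested. Fits with only Cy5-sample arrays also lacked 5-ASA inflamed 2, which had no such array. There the dye and the loss of that mouse cannot be told apart. Counts within a scan session could not be had, since no session holds 2 mice of a group. Low signal limits Neurod1, Cck, Gcg A_51_P406253 in the 5-ASA polypoid samples, and the second probes of Gcg, Chgb and Tph1.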
